A study of Eublepharis macularius with 18 samples.

Results

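Genes of cell division and DNA replication were followed in heart tissue of a lizard, the leopard gecko Eublepharis macularius, after the ventricle was injured by freezing. The members were rows of the deposited count table whose symbol belonged to the Kif, Cenp, Mcm, Cdc, Cdca, Aurk, Bub, Ncap, Orc, Rfc and Gins families, to cyclins A, B and E, to Cdk1, Cdk2, Cdk4 and Cdk6, or to DNA polymerases alpha, delta and epsilon. Cdc42 and its relatives were not taken. Of 121 rows with such a name, 102 averaged 10 normalized counts or more across the 18 libraries and are the members described here. The table held 12376 rows, of which 9887 passed the same minimum. The other 19 rows with such a name lay under it.

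Poly-A RNA was sequenced from 6 groups of 3 animals: untreated controls, sham-operated geckos, and geckos sampled 3, 14, 30 and 100 days post injury (dpi). In the injured animals the ventricle was exposed, the pericardium was torn and a metal probe cooled in liquid nitrogen was applied. The RNA came from ventricle next to the injury, or from a like region in control and sham hearts. Each replicate is 1 animal, extracted alone. Age, strain, sex and the day on which sham hearts were taken are not in the labels.

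A cell that divides first loads the MCM helicase onto its replication origins, copies its DNA with the polymerases alpha, delta and epsilon, and then enters mitosis under Cdk1 and its cyclins. In mitosis the condensins compact the chromosomes, kinesin motors build the spindle and part the daughter cells, and the Bub and Aurora kinases check how chromosomes attach. Heart muscle cells of zebrafish divide again after an injury, whereas those of adult mammals rarely do. Many Kif and Cdc genes have other work: most kinesins carry cargo along microtubules, and some Cdc proteins act in splicing, folding or transcription.

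The libraries held 12646411 (14 dpi 2) to 34898541 reads (100 dpi 3), and the next deepest held 19825686 (control 3). Values are normalized counts, given for animals 1, 2 and 3 of a group in that order, and differences are log2 differences of normalized count + 1, so changes of low genes are understated. A gene is said to be called, or to have risen or fallen, where limma gave it an adjusted p under 0.05 (Benjamini-Hochberg, over the 9887 tested genes). The median gene of a library lay within 0.02 of the control mean on the log2 scale. Rows carry mouse gene names, and a gecko RefSeq gene of the same symbol was found for 98 of the 102 members (not for Aurkb, Cdc20, Cdc25b and Kif4). Where near-identical copies exist, their reads could not be told apart.

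In most comparisons the share of members called lay near the share of all genes called. Between sham and control the test called 0 of 102 members and 0% of all genes. Here 12 members had an unadjusted p under 0.05, against 4.84% of all genes. The count tests edgeR and DESeq2, run without control 1, also called 0. Between 3 dpi and control it called 0 members, with 0.334% of all genes called. An unadjusted p under 0.05 was found for 16 members and for 15.8% of all genes. For the same groups edgeR called 0 and DESeq2 called 3 (Rfc5, Kif9 and Poldip3), and the shares of all genes that these tests called are not given here. Between 14 dpi and control it called 1 member (0.98%), against 0.89% of all genes, although 44 members had an unadjusted p under 0.05 where 16.6% of all genes had one. At 30 dpi against control 11 members were called (9 higher, 2 lower; 10.8%), and 11.3% of all genes. At 100 dpi against control 14 were called (12 higher, 2 lower; 13.7%), and 12% of all genes. This split moved when a trend with transcript length was taken out of each library: the members called at 100 dpi were 9 higher and 4 lower, and the share of all called genes that were higher went from 62.9% to 39.8%.

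Against sham, 1 member was called at 3 dpi (lower; 0.971% of all genes called) and 1 at 14 dpi (higher; 0.738% of all genes). At 30 dpi 12 members were called against sham (10 higher, 2 lower; 11.8%), where 7.25% of all genes were, and at 100 dpi 6 were (all higher; 5.88%), where 7.14% of all genes were. With the length trend removed these were 5 higher and 3 lower at 30 dpi, and 4 higher and 4 lower at 100 dpi. Over all genes this setting called 245 higher and 89 lower at 30 dpi, and 299 higher and 320 lower at 100 dpi. Between 30 and 14 dpi 8 members were called (2 higher, 6 lower; 7.84%), against 3.97% of all genes. The F test over the 6 groups called 17 members (16.7%), against 16.2% of all genes. Comparisons with a common group share its 3 animals, so their counts are not separate pieces of evidence.

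**Figure D1:**
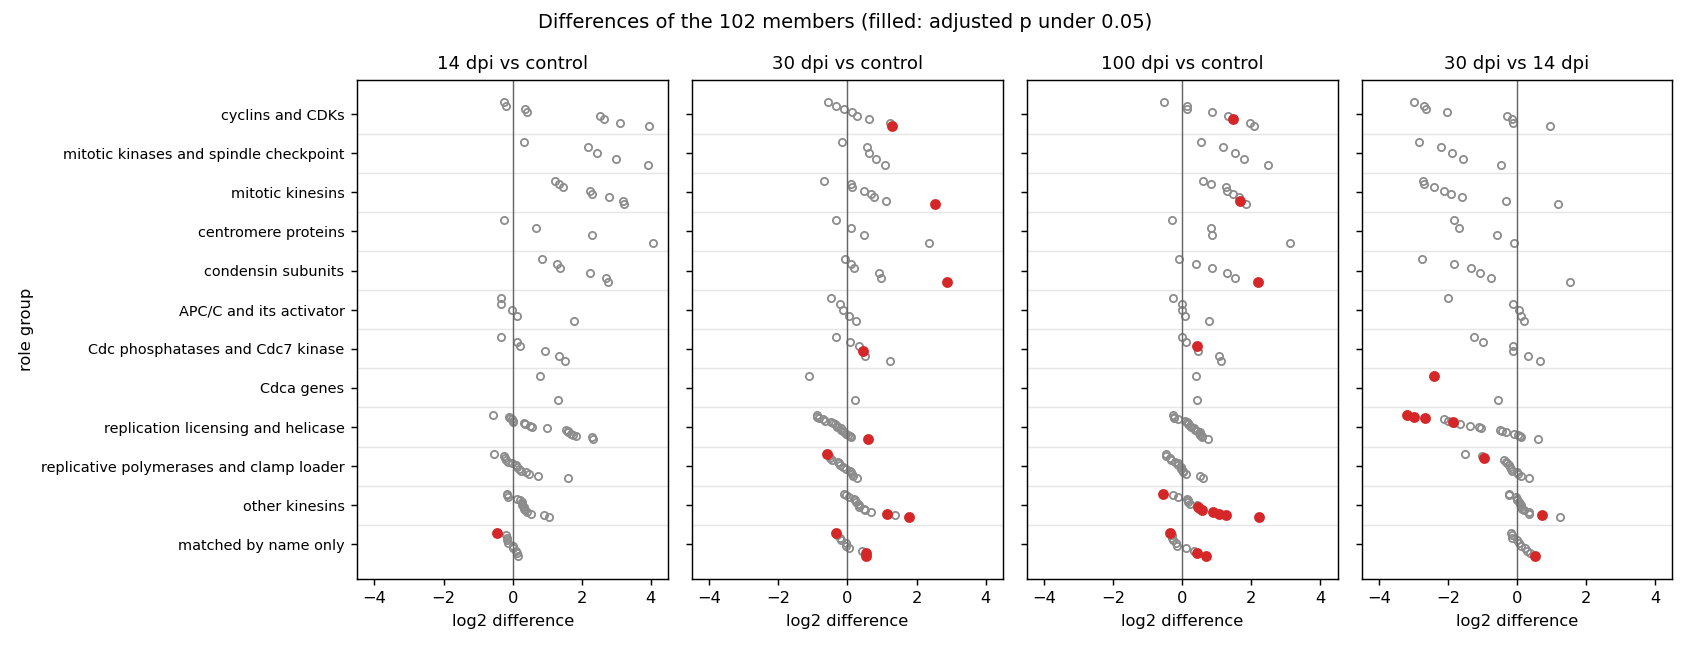
Log2 differences of the 102 members by role group, for 14, 30 and 100 dpi against control and for 30 against 14 dpi; each point is a member and filled points had an adjusted p under 0.05. Mitotic members lay up to 4.06 above control at 14 dpi with none filled. The filled points at 100 dpi fell mostly among other kinesins and genes matched by name only. Of the 11 filled at 30 dpi against control, other kinesins held 2 higher, and genes matched by name only held 2 higher and 1 lower.

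The members split by where their values were high. Lists were made from the members' textbook roles: 21 members that act in G2 and mitosis, and 27 that act in G1 and S phase. The other 54 were in neither. The lists are not complete, since these 54 still held genes with a part in mitosis, such as Bub3, Cenpk, Ncapd3, Ncaph2 and Ncapg2, and the cyclin row Ccnb3. The 54 also held Cdk6, Orc2 and Pole3, which have a part in G1 or S phase. At 30 dpi against control Cdk6 and Orc2 were called higher and Pole3 lower. The library median of the G2 and M members, relative to the control mean, was 0.09, 0.22 and -0.14 in control, 0.59, 1.21 and 3.00 in sham, -0.13, 0.01 and 2.09 at 3 dpi, 2.70, 2.77 and 1.54 at 14 dpi, 0.41, -0.15 and 0.80 at 30 dpi, and 0.51, 0.60 and 3.10 at 100 dpi. The 6 highest medians, 1.54 and above, were those of all 3 libraries of 14 dpi and of 1 library in each of sham, 3 dpi and 100 dpi. Animals of 1 group therefore differed widely: the median ratio of the highest to the lowest library of a group was 5.57 in sham, 5.28 at 3 dpi and 7.24 at 100 dpi, against 1.88 in control, 2.29 at 14 dpi and 3.0 at 30 dpi. For the 54 members in neither list these median ratios were 1.2 to 1.35. Single members among the 54 reached ratios of 11.9 in sham, 38.7 at 30 dpi and 13.1 at 100 dpi.

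For 11 of the 21 G2 and M members, the 6 highest libraries were exactly sham 3, 3 dpi 3, 14 dpi 1, 2 and 3 and 100 dpi 3, and for 17 at least 5 of those 6 were; this set of libraries was chosen after their medians were seen. The highest value lay in 100 dpi 3 for 11 members, in sham 3 for 4 and in 14 dpi 2 for 3. The library 100 dpi 3 was also the deepest. A member seen in few control reads passed the minimum through higher libraries of other groups, such as these 6. Of the 102, 11 had a control mean under 10, of which 7 were G2 and M members. Counts over the members therefore describe them and are no test.

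Per transcript length, the mitotic genes were among the lower members. Mean FPKM over all libraries ran from 0.156 (Kif14) to 1.85 (Kif23) for the mitotic kinesins, with a median of 0.651, and from 0.545 to 3.26 for the condensins. The licensing and helicase genes had a median of 2.95, the polymerases and clamp loader 5.89, the other kinesins 5.45 and the genes matched by name only 15.5. Kif1c (107) and Cdc37 (99.2) were the highest of the 102.

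The G1 and S members varied less as a list. Their library medians were 0.09, 0.19 and -0.19 in control, -0.23, 0.97 and 0.59 in sham, 0.18, 0.02 and 0.26 at 3 dpi, 1.09, 0.35 and 0.92 at 14 dpi, -0.39, -0.30 and -0.14 at 30 dpi, and 0.10, -0.19 and 0.57 at 100 dpi. Here sham 2 and 14 dpi 1 and 3 were highest, and all 3 libraries of 30 dpi lay below 0. Cdk6 and Orc2, called higher at 30 dpi against control, were not in this list. All 6 subunits of the MCM2-7 helicase were above every control library in 7 libraries, namely sham 2 and 3, 3 dpi 3, 14 dpi 1, 2 and 3 and 100 dpi 3, and at most 2 of the 6 were in any other library of the injured and sham groups. The median ratio of the highest to the lowest library was 7.0 in sham, 3.23 at 3 dpi and 3.28 at 100 dpi for these 6. Over the whole list of 27 it was 2.23, 1.83 and 1.74.

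**Figure D2:**
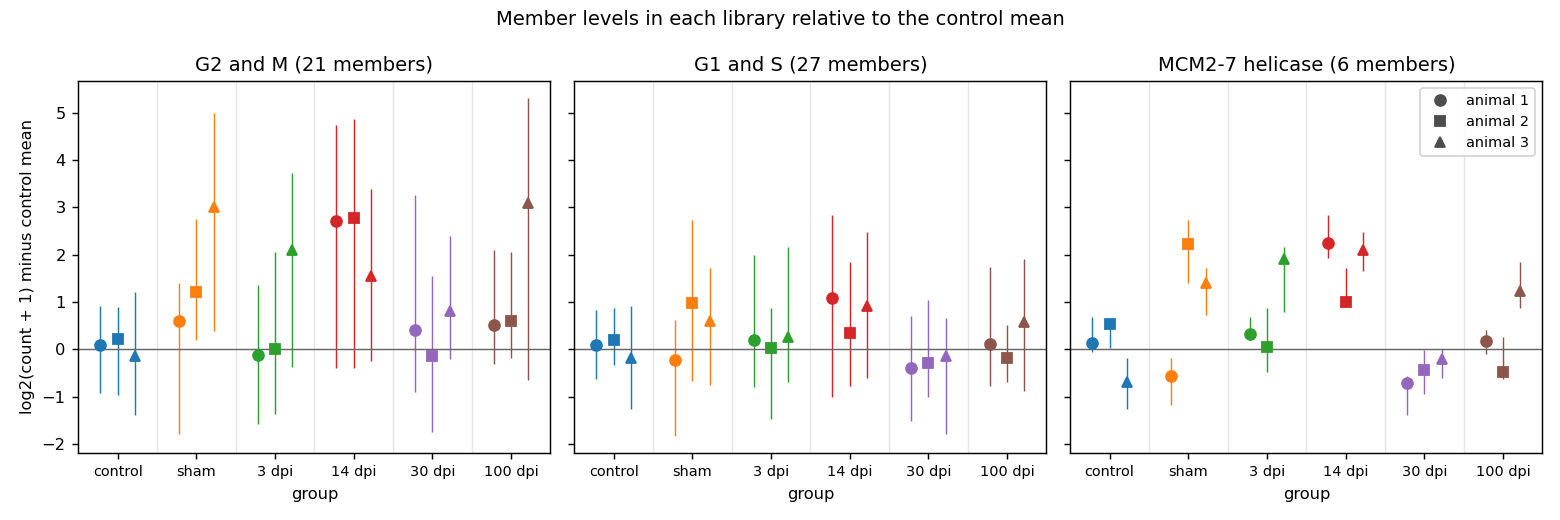
Median log2(count + 1) of 3 sets of members in each of the 18 libraries, minus the control mean; lines run from the lowest to the highest member and symbols mark animals 1 to 3 of a group. The G2 and M median reached 3.00 in sham 3, 2.09 in 3 dpi 3 and 3.10 in 100 dpi 3, while the other animals of those groups lay at or below 1.21.

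The balance of replication to mitotic transcripts differed between the high libraries. The 6 MCM2-7 subunits summed to 2521 normalized counts in sham 2, where Cdk1, Ccna2, Ccnb1 and Ccnb3 summed to 157, a ratio of 16.1. In sham 3 the sums were 1504 and 786, a ratio of 1.91. The 14 dpi libraries had ratios of 4.98, 1.71 and 11.5, and 100 dpi 3 had 1.92. Control libraries lay between 9.84 and 14.0. At 3 dpi the ratios were 26.3, 14.4 and 5.45, the last in the high library 3 dpi 3. Thus sham 3, 14 dpi 2 and 100 dpi 3 had the lowest ratios of all 18 libraries, while sham 2, 3 dpi 1 and 3 dpi 2 lay above all controls. At 30 dpi the ratios were 3.36, 10.2 and 3.87. The MCM sums there (346.8, 483.7 and 530.6) lay within the control range or below it, and the mitotic sums of 30 dpi 1 and 3 (103 and 137) lay above all controls, which reached 61.4.

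**Figure D3:**
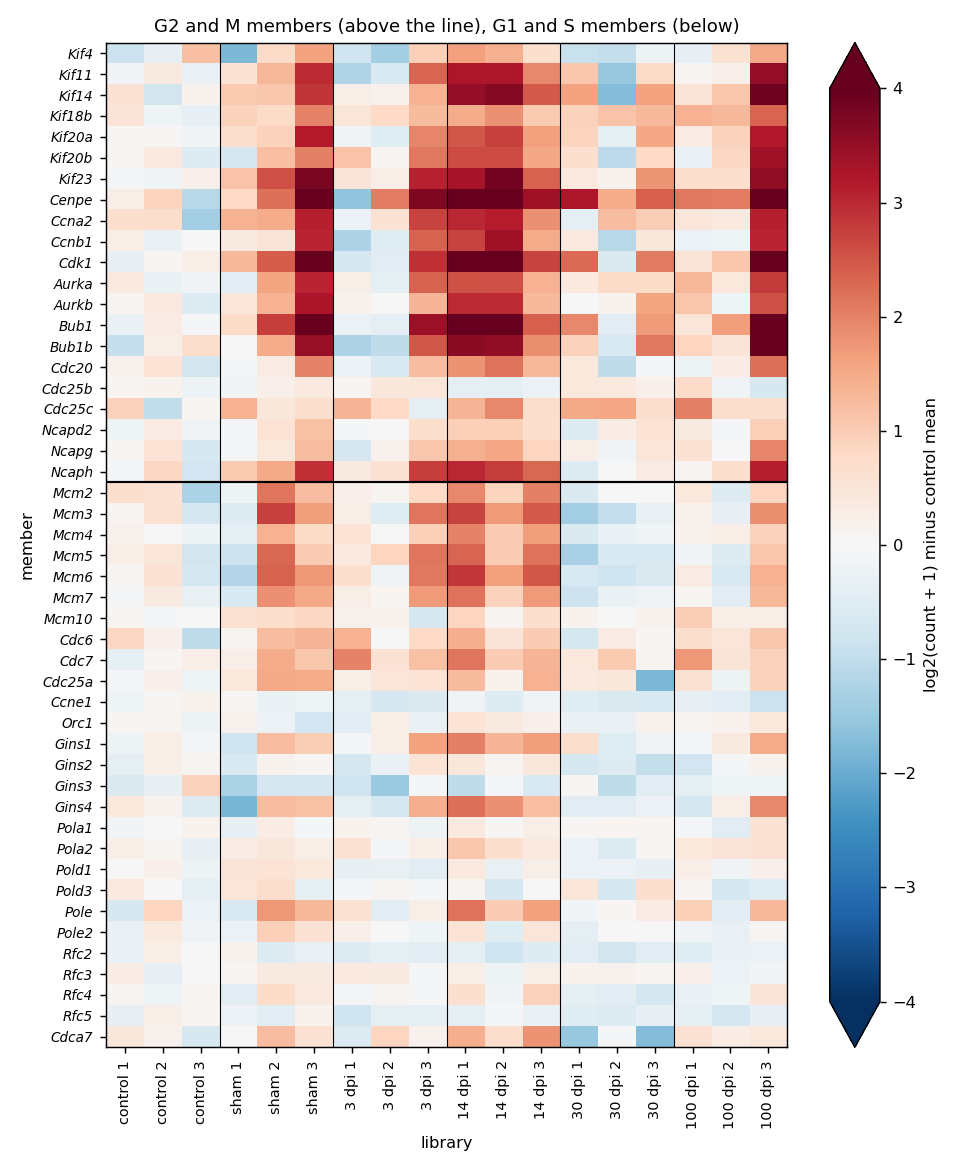
Levels of the 21 G2 and M members (above the line) and 27 G1 and S members (below it) in each library, as log2(count + 1) minus the control mean; colours are capped at 4 either way. The G2 and M block was red in sham 3, 3 dpi 3, 14 dpi 1 to 3 and 100 dpi 3, and the rows of the 6 MCM2-7 subunits were red in sham 2 as well.

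Cdk1, the kinase that drives entry into mitosis, measured 8.05, 11.1 and 12.7 normalized counts in control, 27.4, 60.0 and 365 in sham, 6.12, 7.38 and 85.9 at 3 dpi, 217, 331 and 73.8 at 14 dpi, 54.0, 6.59 and 46.9 at 30 dpi and 15.3, 23.2 and 287 at 100 dpi. Controls lay below every sham and 14 dpi library, while 3 dpi and 100 dpi each had 1 animal far above its group. Its 14 dpi mean was 207 ± 129 against 10.6 ± 2.35 (SD, n = 3) in control (log2 3.94 ± 1.2 SE, adjusted p = 0.127). Ccnb1, the mitotic cyclin B1, measured 22.1, 15.2 and 18.1 normalized counts in control, 23.8, 26.6 and 159.6 in sham, 7.14, 12.9 and 98.6 at 3 dpi, 124, 203 and 53.0 at 14 dpi, 24.1, 7.91 and 25.2 at 30 dpi and 15.3, 16.1 and 157 at 100 dpi. Its 14 dpi libraries were above all controls, but the difference was not called (log2 2.53 ± 0.999 SE, adjusted p = 0.225). Ccna2, cyclin A2 of S phase and G2, was high in the same libraries. It measured 115, 126 and 49.6 at 14 dpi and 22.2, 22.3 and 4.53 in control (log2 2.66 ± 0.865 SE, adjusted p = 0.146). The row named Ccnb3, for a B cyclin best known from meiosis in mammals, held 0 reads in 30 dpi 2 and 138 and 150 normalized counts in sham 3 and 100 dpi 3 (log2 3.1 ± 1.3 SE, adjusted p = 0.254 for 14 dpi against control). Ccnb2 had a mean of 2.48 and Ccne2 of 1.73, under the minimum, and Ccna1 had no read in any library.

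The kinases and cyclins of G1 did not share this pattern. Cdk2, which pairs with cyclins E and A, lay between 489 and 952 in all libraries (F test adjusted p = 0.347). Cdk4, a G1 kinase bound by D cyclins, lay between 91.3 and 180.4 (F test adjusted p = 0.0661), and its log2 difference was -0.55 at 3 dpi (adjusted p = 0.164). Ccne1, cyclin E1, was 137, 159 and 173 in control and 102 to 110.2 at 30 dpi (log2 -0.56 ± 0.178 SE, adjusted p = 0.0545); these groups did not overlap. Cdk6, the relative of Cdk4, rose at the later times.

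Among the mitotic kinases and spindle checkpoint genes, 5 of 7 listed genes were members, and no row of these genes lay under the minimum. Bub1, a checkpoint kinase at the kinetochore, had the largest variation of all members over the libraries (coefficient of variation 139%) and measured 3.02, 5.06 and 3.62 normalized counts in control, 7.14, 31.7 and 133 in sham, 3.06, 2.77 and 50.8 at 3 dpi, 128, 119.8 and 24.2 at 14 dpi, 17.2, 2.64 and 14.9 at 30 dpi and 5.73, 14.3 and 190.4 at 100 dpi. Sham 3, 14 dpi 1 and 2 and 100 dpi 3 all exceeded 100, and the controls did not exceed 5.06. The 14 dpi difference from control was not called (log2 3.92 ± 1.29 SE, adjusted p = 0.149). Bub1b, which encodes the checkpoint protein BubR1, measured 115, 111 and 33.4 at 14 dpi and 4.03, 10.1 and 14.5 in control (log2 3.0 ± 1.15 SE, adjusted p = 0.213). Aurka and Aurkb, the Aurora kinases of spindle poles and of the chromosomal passenger complex, gave log2 differences of 2.18 ± 0.846 SE and 2.43 ± 0.786 SE at 14 dpi (adjusted p = 0.217 and 0.145). Bub3, which holds Bub1 at the kinetochore and was the most abundant per length of the 5 (mean FPKM 13.2), lay between 192 and 428 in all libraries (F test adjusted p = 0.12).

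The mitotic kinesins were 8 members of 12 listed rows. Kif23, a motor of the central spindle in cytokinesis, measured 18.1, 17.2 and 21.7 normalized counts in control, 42.8, 117 and 278 in sham, 27.6, 23.1 and 167 at 3 dpi, 196, 291 and 102 at 14 dpi, 25.3, 21.1 and 66.3 at 30 dpi and 31.5, 30.4 and 234 at 100 dpi. Every sham and 14 dpi library was above every control, and its 14 dpi difference had an adjusted p of 0.0926 (log2 3.18 ± 0.857 SE). Kif11, the motor that pushes spindle poles apart, measured 12.1, 17.2 and 10.9 in control, 132, 131 and 53.0 at 14 dpi and 160.0 in 100 dpi 3 (log2 2.8 ± 1.02 SE, adjusted p = 0.19). Kif20a, which works with Aurora B in cytokinesis, gave log2 2.29 ± 0.802 SE, adjusted p = 0.176, and the chromosome-arm motor row Kif4 gave log2 1.23 ± 0.795 SE, adjusted p = 0.468. Kif20b, another cytokinesis motor, lay between 5.27 and 134.5 (F test adjusted p = 0.286).

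When only the 14 dpi and control libraries entered the fit, 5 members were called higher: Kif23 (adjusted p = 0.026), Cdk1, Kif20a and Cenpe (0.039 each) and Kif11 (0.0447). The share of all genes called in that fit is not given here, so the count of 5 is not a result about the members. In the fit of all groups, with the wide spread of sham, 3 dpi and 100 dpi libraries included, none of the 5 was called. Of the 21 G2 and M members, 18 had every 14 dpi library above every control, where 13.6% of all genes did. An unadjusted p under 0.05 was found for 19 of these members and for 16.6% of all genes. The median log2 difference of the 21 at 14 dpi was 2.43, beside 0.00 for all genes. An exact permutation test of 3 against 3 animals cannot go below p = 0.1.

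2 members of the mitotic kinesin group were called at 30 or 100 dpi. Kif18b, a motor that shortens microtubules in mitosis, measured 22.1, 13.2 and 11.8 normalized counts in control, 29.8, 26.6 and 63.1 in sham, 21.4, 26.8 and 38.1 at 3 dpi, 44.3, 56.1 and 32.3 at 14 dpi, 29.9, 34.3 and 38.9 at 30 dpi and 41.1, 38.4 and 80.5 at 100 dpi. Its values were highest in 100 dpi 3 and sham 3, and all 14 dpi libraries lay above all controls. All 100 dpi libraries did too, and the rise at 100 dpi against control was called (log2 1.67 ± 0.394 SE, adjusted p = 0.0132). It was not called without control 3 or without 100 dpi 3 (adjusted p up to 0.0607). Against sham Kif18b was not called at 100 dpi, and sham 3 lay inside the 100 dpi range. Kif24, a centriolar kinesin that restrains cilia in human cells, measured 14.1, 13.2 and 9.05 normalized counts in control, 16.7, 13.7 and 17.1 in sham, 29.6, 45.2 and 25.4 at 3 dpi, 46.7, 21.7 and 31.1 at 14 dpi, 162, 88.3 and 27.4 at 30 dpi and 13.4, 36.6 and 21.2 at 100 dpi. It rose at 30 dpi against control (log2 2.53 ± 0.531 SE, adjusted p = 0.00656) and against sham (log2 2.15 ± 0.531 SE, adjusted p = 0.0213). Libraries 30 dpi 1 and 2 were high, and 30 dpi 3 lay inside the range of the 3 and 14 dpi libraries. The call against sham was lost without any 1 sham library, 30 dpi 1 or 30 dpi 2 (adjusted p up to 0.0817).

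Of 22 listed centromere genes 4 were members. Cenpe, a kinesin that moves chromosomes to the spindle equator, measured 6.04, 10.1 and 1.81 normalized counts in control, 9.52, 26.6 and 106 in sham, 1.02, 24.0 and 79.1 at 3 dpi, 124, 128 and 62.2 at 14 dpi, 56.3, 15.8 and 30.9 at 30 dpi and 24.8, 24.1 and 217 at 100 dpi. It was the mitotic member with the largest log2 difference at 14 dpi (log2 4.06 ± 1.17 SE, adjusted p = 0.111), and its 30 dpi libraries were also all above control (log2 2.38 ± 1.17 SE, adjusted p = 0.207). Cenpk, a kinetochore protein, measured 88.6, 58.6 and 40.4 at 14 dpi and 4.03, 15.2 and 21.7 in control (F test adjusted p = 0.302). Cenpi, another one, lay between 3.91 and 31.6 (F test adjusted p = 0.346). Cenpv, by contrast, was steady at 292 to 482 in all libraries (F test adjusted p = 0.554). No row was named Cenpa or Cenpf, so these genes were not analysed here.

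The 6 condensin rows were all members, and all 6 had positive log2 differences at 14 dpi (0.86 to 2.77). Each had an unadjusted p under 0.05, where 16.6% of all genes had one, and none was called. Ncapg, of condensin I, measured 159, 172 and 107 at 14 dpi and 62.4, 87.1 and 37.1 in control (log2 1.27 ± 0.503 SE, adjusted p = 0.225). Ncapd2, also of condensin I, gave log2 0.86 ± 0.343 SE, adjusted p = 0.226. Ncaph, the kleisin of condensin I, measured 5.03, 10.1 and 2.71 normalized counts in control, 11.9, 17.1 and 46.9 in sham, 7.14, 8.30 and 42.0 at 3 dpi, 50.3, 42.1 and 30.0 at 14 dpi, 3.44, 5.27 and 6.86 at 30 dpi and 5.73, 8.93 and 53.5 at 100 dpi. Its 30 dpi libraries returned to control levels (log2 -2.76 ± 0.794 SE, adjusted p = 0.062 for 30 against 14 dpi).

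Ncapg2, a subunit of condensin II, did not follow the other condensins. It measured 104, 80.0 and 143 normalized counts in control, 133, 159 and 447 in sham, 268, 249 and 542 at 3 dpi, 690.4, 249 and 121 at 14 dpi, 924, 824 and 653 at 30 dpi and 619.9, 417 and 447 at 100 dpi. All 30 dpi and 100 dpi libraries lay above all controls, and the 14 dpi libraries ranged from a control-like 121 to 690. It rose at 30 dpi against control (log2 2.89 ± 0.528 SE, adjusted p = 0.0026) and at 100 dpi (log2 2.19 ± 0.528 SE, adjusted p = 0.0145). It also rose at 30 dpi against sham (log2 1.9 ± 0.528 SE, adjusted p = 0.0403). The 30 dpi call against control was kept in all 6 fits that left out 1 library. The call at 100 dpi was lost without control 2 or 100 dpi 1 (adjusted p up to 0.0606), and that against sham was lost without sham 1 or 2 or any 30 dpi library (up to 0.154).

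The anaphase-promoting complex, which ends mitosis by marking cyclins for destruction, had no member called in any comparison. Cdc20, its activator, measured 98.1, 129 and 70.3 at 14 dpi and 31.2, 40.5 and 16.3 in control (log2 1.77 ± 0.67 SE, adjusted p = 0.209). It was high again in sham 3 (111) and 100 dpi 3 (130.2). The subunit Cdc27 had the smallest coefficient of variation of all members, 7.85%, and Cdc23 and Cdc26 gave F test adjusted p-values of 0.461 and 0.312. The kinase Cdc7, which fires loaded origins, measured 33.2, 45.6 and 51.6 normalized counts in control, 51.2, 122 and 92.0 in sham, 174, 63.7 and 96.7 at 3 dpi, 190.3, 88.0 and 111 at 14 dpi, 57.4, 89.6 and 45.7 at 30 dpi and 144, 61.6 and 81.5 at 100 dpi (log2 1.5 ± 0.432 SE, adjusted p = 0.109 for 14 dpi against control). None of the phosphatases that switch on the cyclin-dependent kinases was called at 14 dpi. Cdc25a gave log2 0.93 ± 0.579 SE, adjusted p = 0.446. Cdc25c gave log2 1.34 ± 0.57 SE, adjusted p = 0.258. Cdc25b, at 409 to 453 in all 14 dpi libraries, lay below all controls (log2 -0.34 ± 0.255 SE, adjusted p = 0.536).

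Cdc14b, a phosphatase of mitotic exit and the DNA damage response, rose late. Its 30 dpi libraries measured 2096, 1555 and 1870 and its 100 dpi libraries 1902, 1901 and 1598, above all 3 controls (1376, 1400 and 1227). The log2 differences were log2 0.46 ± 0.119 SE, adjusted p = 0.0219 at 30 dpi and log2 0.43 ± 0.119 SE, adjusted p = 0.0287 at 100 dpi. Both calls were lost when a trend with transcript length was taken out of each library. Each was also lost when 1 of several libraries was left out (30 dpi: control 3, 30 dpi 1 or 3; 100 dpi: control 1 or 3, 100 dpi 1 or 2; adjusted p up to 0.105). Against sham both differences were called as well (log2 0.44 at 30 dpi and 0.42 at 100 dpi; adjusted p = 0.0332 and 0.0445). These calls were likewise lost without single libraries (up to 0.147) and with the length trend removed. Its relative Cdc14a was not called (F test adjusted p = 0.98).

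Of 9 MCM members, 4 fell from 14 to 30 dpi, and each of these encodes a subunit of the MCM2-7 helicase. Mcm3, a helicase subunit, measured 66.4, 94.2 and 38.0 normalized counts in control, 42.8, 414 and 199 in sham, 72.5, 44.3 and 279 at 3 dpi, 410.4, 205 and 347 at 14 dpi, 23.0, 31.6 and 50.3 at 30 dpi and 70.7, 49.1 and 227 at 100 dpi. All 14 dpi libraries lay above all controls, and 30 dpi 1 and 2 lay below them, so 30 and 14 dpi did not overlap. Mcm4, the only subunit also called by the F test (adjusted p = 0.0322), measured 112, 101 and 86.9 normalized counts in control, 76.2, 264 and 166 in sham, 145, 101 and 192 at 3 dpi, 399.7, 200.1 and 316 at 14 dpi, 66.6, 83.0 and 92.6 at 30 dpi and 111, 119 and 188 at 100 dpi. Sham 2 reached the range of 14 dpi in both genes, and sham 1 lay near the controls. Mcm6 measured 48.3, 66.8 and 27.1 normalized counts in control, 19.0, 231 and 149 in sham, 71.4, 40.6 and 196 at 3 dpi, 323, 140.2 and 251 at 14 dpi, 28.7, 25.0 and 29.7 at 30 dpi and 56.4, 28.6 and 119 at 100 dpi. The 3 libraries of 30 dpi were the tightest group, at 25.0 to 29.7.

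From 14 to 30 dpi Mcm3 fell (log2 -3.17 ± 0.778 SE, adjusted p = 0.0342), as did Mcm4 (log2 -1.86 ± 0.379 SE, adjusted p = 0.0146), Mcm5 (log2 -2.66 ± 0.676 SE, adjusted p = 0.039) and Mcm6 (log2 -2.97 ± 0.768 SE, adjusted p = 0.0414). Mcm2 (log2 -1.81 ± 0.572 SE, adjusted p = 0.0904) and Mcm7 (log2 -2.01 ± 0.593 SE, adjusted p = 0.0709) had negative differences that were not called. Mcm8 and Mcm9, which act in DNA repair, and Mcm10, which helps to start replication, were not called either, and their libraries overlapped (log2 -1.37, -0.32 and -0.44; adjusted p = 0.164, 0.382 and 0.374). The calls of Mcm3, Mcm5 and Mcm6 were lost without any 1 of the 6 libraries, with adjusted p up to 0.119, 0.146 and 0.152. That of Mcm4 was lost without 14 dpi 1 or 3 (up to 0.0661). The log2 differences stayed between -3.47 and -1.64. Neither time was called against control: Mcm3 gave log2 2.29 ± 0.778 SE, adjusted p = 0.16 at 14 dpi and log2 -0.88 ± 0.778 SE, adjusted p = 0.508 at 30 dpi. Mcm4 gave log2 1.55 ± 0.379 SE, adjusted p = 0.0647 and log2 -0.31 ± 0.379 SE, adjusted p = 0.653.

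**Figure D4:**
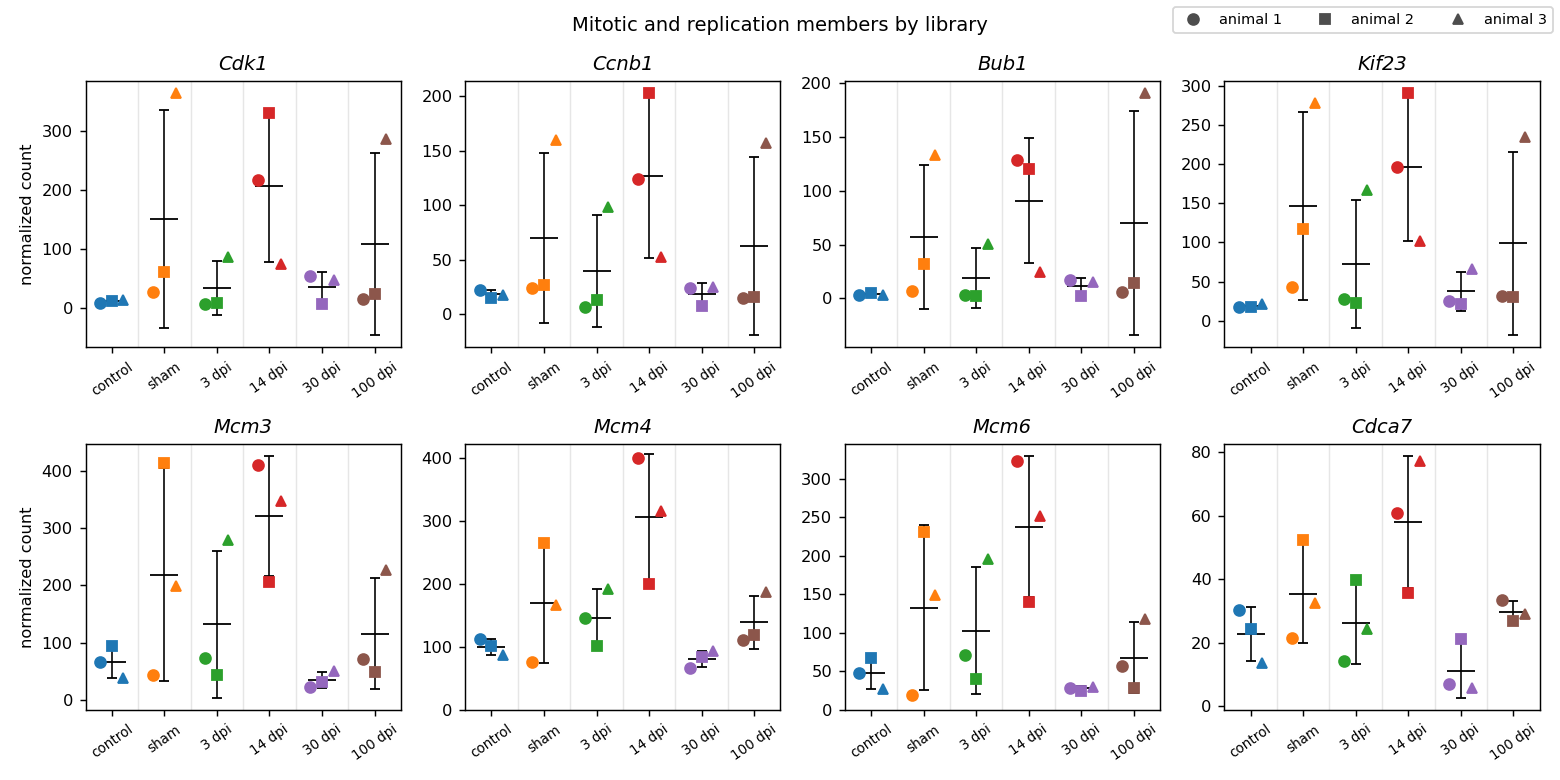
Normalized counts of 8 mitotic and replication members in each library, by group; points are animals and bars show mean ± SD (n = 3). Cdk1, Ccnb1, Bub1 and Kif23 had single high animals in sham, 3 dpi and 100 dpi, and the MCM genes plotted and Cdca7 lay lower at 30 dpi than at 14 dpi without overlap.

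2 further members fell from 14 to 30 dpi. Cdca7, which recruits a chromatin remodeller and is a target of Myc and E2F in mammals, measured 30.2, 24.3 and 13.6 normalized counts in control, 21.4, 52.3 and 32.5 in sham, 14.3, 39.7 and 24.4 at 3 dpi, 61.0, 35.7 and 77.2 at 14 dpi, 6.89, 21.1 and 5.72 at 30 dpi and 33.4, 26.8 and 28.9 at 100 dpi. Its 30 dpi libraries were below all 14 dpi libraries (log2 -2.42 ± 0.508 SE, adjusted p = 0.0169). The call was lost without 14 dpi 1 or 3 or 30 dpi 3 (adjusted p up to 0.0747). Pola2, the regulatory subunit of polymerase alpha, measured 114, 84.1 and 70.3 at 14 dpi and 44.8, 35.6 and 54.9 at 30 dpi (log2 -0.96 ± 0.243 SE, adjusted p = 0.0388). Its call was lost without any 14 dpi library or without 30 dpi 1 or 2 (up to 0.17). Cdca7l, a relative of Cdca7, gave log2 -0.56 ± 0.37 SE, adjusted p = 0.439. Over the 27 G1 and S members, 6 fell between these times, where 1.56% of all genes did, and none rose. Of the 27, 15 had every 30 dpi library below every 14 dpi library, where 12.1% of all genes did.

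None of the other licensing genes was called between 30 and 14 dpi. Gins4, of the GINS complex that joins the helicase, measured 53.9, 42.1 and 26.5 at 14 dpi and 8.04, 7.91 and 9.15 at 30 dpi without overlap (log2 -2.1 ± 0.809 SE, adjusted p = 0.163). Its partners Gins1 and Gins2 gave log2 differences of -1.66 and -1.05 (adjusted p = 0.116 and 0.0847), and Gins3 gave 0.11 (adjusted p = 0.925). Cdc6, the licensing factor, gave log2 -1.11 ± 0.511 SE, adjusted p = 0.25. Cdc45, another helicase partner, lay under the minimum (mean 7.43). The origin recognition complex was mostly steady. Orc1 lay between 305 and 749 (F test adjusted p = 0.167). Orc4 and Orc5 had the smallest F statistics of this role group (adjusted p = 0.719 and 0.878). Orc2 measured 306, 364 and 320.3 normalized counts in control, 286, 416 and 262 in sham, 343, 323 and 326 at 3 dpi, 322, 362 and 287 at 14 dpi, 416, 472 and 621 at 30 dpi and 495, 487 and 434 at 100 dpi. It rose at 30 dpi against control (log2 0.59 ± 0.173 SE, adjusted p = 0.0383) and sham (log2 0.66 ± 0.173 SE, adjusted p = 0.0304). Its 30 dpi libraries overlapped the sham range, since 30 dpi 1 and sham 2 both measured 416. The calls were lost without several single libraries (any control, sham 1 or 3, and 30 dpi 2 or 3; adjusted p up to 0.169).

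Of the replicative polymerases and clamp loader, 14 of 15 listed genes were members, and most were not called in any comparison. No row of these genes lay under the minimum. Pold1, the catalytic subunit of polymerase delta, measured 139, 164 and 124 normalized counts in control, 204, 207 and 191 in sham, 112, 115 and 102 at 3 dpi, 186, 116 and 167 at 14 dpi, 119, 121 and 113 at 30 dpi and 169, 129 and 163 at 100 dpi. All sham libraries were above all controls and above all 3 dpi and 30 dpi libraries. It fell, relative to sham, at 3 dpi (log2 -0.86 ± 0.177 SE, adjusted p = 0.0387) and at 30 dpi (log2 -0.76 ± 0.177 SE, adjusted p = 0.0153). Against control neither was called (log2 -0.36 ± 0.177 SE, adjusted p = 0.335 and log2 -0.26 ± 0.177 SE, adjusted p = 0.376). The 3 dpi call was lost without any sham library or without 3 dpi 1 or 3 (up to 0.143), and that at 30 dpi without sham 2 or 30 dpi 3 (up to 0.064).

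Pole3, a histone-fold subunit of polymerase epsilon that also serves a chromatin remodeller, measured 109, 132 and 98.3 at 30 dpi and 148, 178 and 182 in control. It fell at 30 dpi against control (log2 -0.58 ± 0.158 SE, adjusted p = 0.0268) and sham (log2 -0.68 ± 0.158 SE, adjusted p = 0.0156). These calls were lost without control 2 or 3, sham 2 or 3, or 30 dpi 3 (up to 0.109), and the first also with the length trend removed. Pole, the catalytic subunit of epsilon, ranged from 14.1 to 105 with its highest values in 14 dpi 1, sham 2 and 14 dpi 3 (log2 1.61 ± 0.596 SE, adjusted p = 0.196 at 14 dpi). Pola1, the catalytic subunit of alpha, and Pold2 gave F test adjusted p-values of 0.879 and 0.972. Rfc1, the large clamp loader subunit, gave log2 0.40 ± 0.158 SE, adjusted p = 0.226 at 14 dpi, and Rfc4, a small one, gave log2 -1.0 ± 0.302 SE, adjusted p = 0.0756 for 30 against 14 dpi.

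Several members were higher at 30 and 100 dpi than at the other times. Of 11 members called at 30 dpi against control, 9 were also called against sham, and at 100 dpi 6 of 14 were. Both comparisons use the same late animals, and the share of all genes called in both is not given here. These counts are therefore not a result about the members. The summed level of endothelial markers (5 of 8 rows) was 4845 to 6474 in control, 5026 to 7204 in sham, 6405 to 7862 at 3 dpi, 5114 to 7066 at 14 dpi, 6839 to 7062 at 30 dpi and 7950 to 11050 at 100 dpi, so the 3 libraries of 100 dpi were the highest. Among these markers Cdh5, the cadherin of endothelial junctions, measured 139 to 218 in control, 207 to 391 in sham, 265 to 379 at 3 dpi, 438 to 674 at 14 dpi, 602 to 977 at 30 dpi and 879 to 1223 at 100 dpi, whereas Tie1, a receptor of endothelium, measured 645 to 871 in control, 568 to 675 at 30 dpi and 803 to 889 at 100 dpi. Kdr, the row with the highest mean (4783), measured 3468 to 4764 in control, 3301 to 5600 in sham and 5353 to 8618 at 100 dpi. Vwf was highest at the early times. It measured 55.2 to 295 in control, 1025 to 1395 at 3 dpi, 435 to 1885 at 14 dpi and 265 to 388 at 100 dpi. Tek was highest in 3 dpi 3 (760), beside 194 to 326 in control and 304 to 484 at 100 dpi. Their part in the results below was not tested. Kif13b, a kinesin-3 motor that carries signalling proteins, had the largest F statistic of all members (F test adjusted p = 0.000204) and measured 361, 423 and 370.1 normalized counts in control, 369, 370.3 and 358 in sham, 416, 534 and 310.5 at 3 dpi, 544, 481 and 516 at 14 dpi, 905, 867 and 769.6 at 30 dpi and 845, 895 and 688 at 100 dpi. Every 30 and 100 dpi library was above every other library. It rose at 30 dpi against control (log2 1.14 ± 0.16 SE, adjusted p = 0.000387) and sham (log2 1.21 ± 0.16 SE, adjusted p = 0.000266). It also rose at 100 dpi against control (log2 1.06 ± 0.16 SE, adjusted p = 0.000696) and sham (log2 1.14 ± 0.16 SE, adjusted p = 0.000503). These 4 calls were kept in every setting and every fit with 1 library left out. It was also higher at 30 than at 14 dpi (log2 0.72 ± 0.16 SE, adjusted p = 0.0223), a call lost without any 14 dpi library or without 30 dpi 2 (up to 0.0809).

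Cdk6, the G1 kinase that with D cyclins phosphorylates the retinoblastoma protein, measured 48.3, 25.3 and 65.2 normalized counts in control, 44.0, 52.3 and 37.9 in sham, 66.3, 55.4 and 66.4 at 3 dpi, 64.6, 68.8 and 38.0 at 14 dpi, 94.2, 139.7 and 93.8 at 30 dpi and 120.4, 122 and 124 at 100 dpi. The 30 and 100 dpi libraries were all above the libraries of the other groups. Cdk6 rose at 100 dpi against control (log2 1.48 ± 0.308 SE, adjusted p = 0.00683) and sham (log2 1.44 ± 0.308 SE, adjusted p = 0.00977), calls kept in every setting and left-out fit. At 30 dpi it rose against control (log2 1.29 ± 0.308 SE, adjusted p = 0.0138) and sham (log2 1.25 ± 0.308 SE, adjusted p = 0.0209), but without control 2, sham 1 or 3, or 30 dpi 2 these calls were lost (up to 0.0913). Per length it stayed a low gene, at a mean FPKM of 1.3, against 13.9 for Cdk2.

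Kif21b, a kinesin that regulates microtubule growth in neurons and lymphocytes, measured 7.05, 9.12 and 12.7 normalized counts in control, 1.19, 6.0 and 9.02 in sham, 13.3, 10.2 and 15.6 at 3 dpi, 23.9, 21.7 and 16.1 at 14 dpi, 37.9, 25.0 and 18.3 at 30 dpi and 39.2, 52.7 and 50.1 at 100 dpi. Levels were low throughout, at a mean FPKM of 0.246, and highest in all 3 libraries of 100 dpi. It rose at 100 dpi against control (log2 2.21 ± 0.497 SE, adjusted p = 0.0106) and sham (log2 3.16 ± 0.497 SE, adjusted p = 0.00124). It was also called higher at 30 dpi against sham (log2 2.33 ± 0.497 SE, adjusted p = 0.00857). All 3 calls were kept in each left-out fit. At 30 dpi against control it was not called (log2 1.38 ± 0.497 SE, adjusted p = 0.0847), although the groups did not overlap.

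Kif26b, a kinesin without motor activity that acts in Wnt5a signalling, measured 271, 229 and 297 normalized counts in control, 484, 491 and 199 in sham, 260.3, 449 and 353 at 3 dpi, 261, 571 and 370.1 at 14 dpi, 1009, 999 and 732 at 30 dpi and 1008, 574 and 455 at 100 dpi. Its 30 dpi libraries were above all libraries of control, sham, 3 and 14 dpi, and 100 dpi 1 stood above the other animals of 100 dpi. It rose at 30 dpi against control (log2 1.77 ± 0.364 SE, adjusted p = 0.00573), in every setting and left-out fit, and against sham (log2 1.32 ± 0.364 SE, adjusted p = 0.0389). At 100 dpi it was called against control (log2 1.28 ± 0.364 SE, adjusted p = 0.0333). The last 2 calls were lost without sham 3 or any 30 dpi library, and without any control or 100 dpi 1 or 2 (up to 0.154).

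Called differences of the other transport kinesins were under 1 on the log2 scale. Kif13a, the relative of Kif13b, measured 1309, 1269 and 1363 at 100 dpi and 956, 808 and 883 in control (log2 0.58 ± 0.122 SE, adjusted p = 0.00741). It was called against sham too (log2 0.47 ± 0.122 SE, adjusted p = 0.0295), though not without sham 2 or 3 or any 100 dpi library (up to 0.14). Kif21a (log2 0.45 ± 0.111 SE, adjusted p = 0.0168) and Kif9, a kinesin of motile cilia (log2 0.90 ± 0.28 SE, adjusted p = 0.0469), rose at 100 dpi against control. Kif21a was not called without control 3 or 100 dpi 1 (up to 0.0778), nor Kif9 without any 1 of the 6 libraries (up to 0.174). At 3 dpi Kif9 measured 39.8, 36.9 and 36.1, above all controls (18.1, 15.2 and 12.7), and was not called (log2 1.25 ± 0.28 SE, adjusted p = 0.073). It was called there with no minimum (adjusted p = 0.0398), with the length trend removed (0.049) and by DESeq2 (0.0355). Removing the length trend ended the calls of Kif13a and Kif21a at 100 dpi. Kif1c, a kinesin-3 motor and the member with the highest level per length (mean FPKM 107), fell at 100 dpi against control (log2 -0.57 ± 0.157 SE, adjusted p = 0.0291). Its libraries measured 8028, 9766 and 10740 there and 14250, 14750 and 12990 in control. It was not called without control 1 or 2 or 100 dpi 1 or 2 (up to 0.128).

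Kif5b, the widely expressed heavy chain of kinesin-1, measured 1838, 1892 and 1844 normalized counts in control, 1808, 1533 and 1615 in sham, 2175, 2048 and 2348 at 3 dpi, 2402, 2295 and 2400 at 14 dpi, 2478, 2554 and 1992 at 30 dpi and 1891, 1955 and 2424 at 100 dpi. Its sham libraries were the lowest group. It was higher than in sham at 14 dpi (log2 0.52 ± 0.113 SE, adjusted p = 0.0448) and at 30 dpi (log2 0.50 ± 0.113 SE, adjusted p = 0.0133). Against control the 14 dpi difference was not called (log2 0.35 ± 0.113 SE, adjusted p = 0.146). The 14 dpi call was lost without any 1 of the 6 libraries (up to 0.196) and under 6 of 10 other settings, and the 30 dpi call without sham 2 or 30 dpi 2 (up to 0.072). Kif1b, which carries synaptic vesicle precursors and mitochondria, was not called in any comparison (F test adjusted p = 0.169). Kif7, of Hedgehog signalling, and Kif16b, of endosome transport, had the smallest F statistics of this group (adjusted p = 0.565 and 0.78); Kif16b stood out only in control 2 and 30 dpi 2, at 538 and 674 where all others were at most 251.

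**Figure D5:**
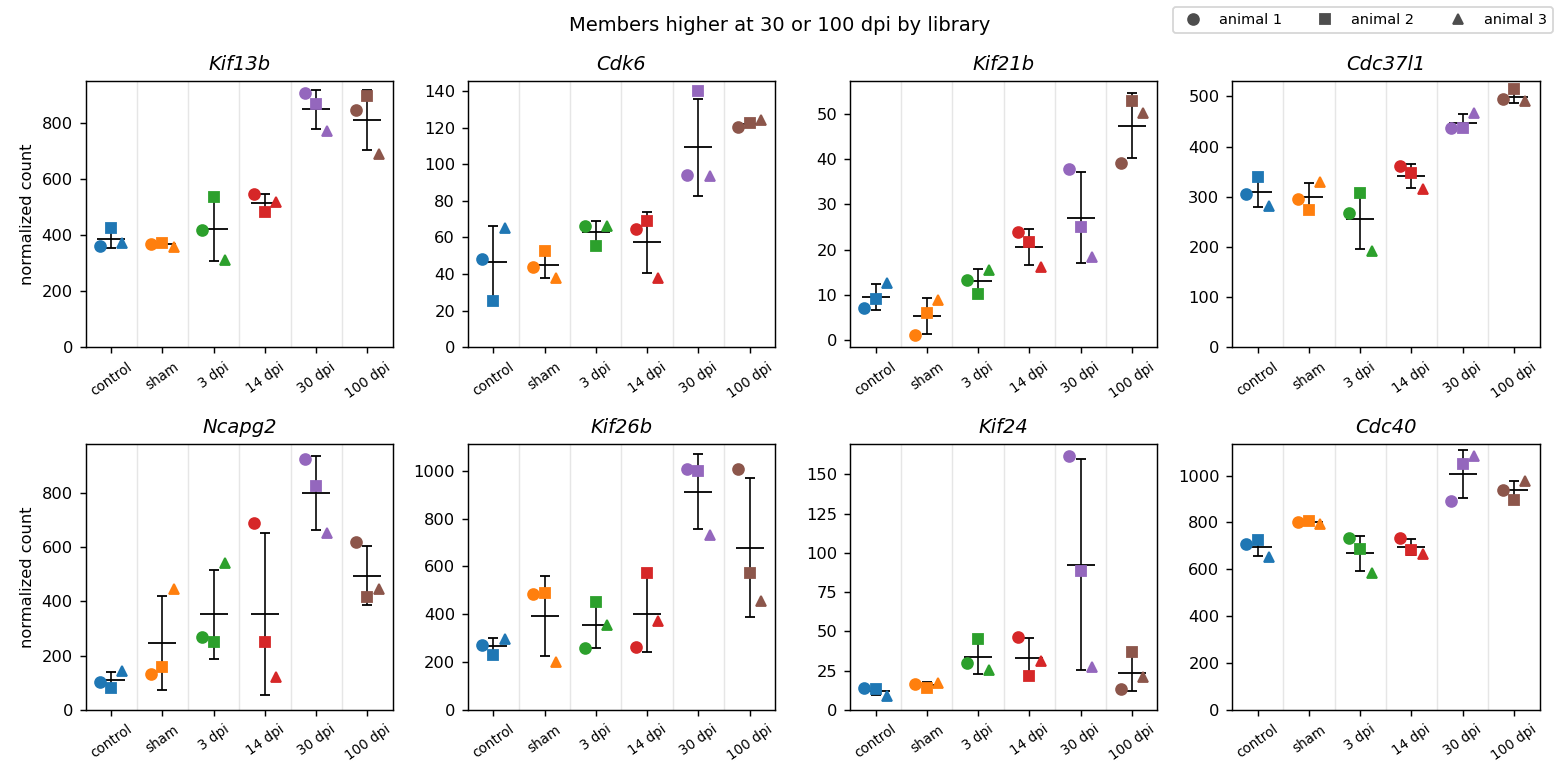
Normalized counts of 8 members with higher levels at 30 or 100 dpi, by group; points are animals and bars show mean ± SD (n = 3). For Kif13b and Cdk6 all 6 libraries of 30 and 100 dpi lay above all 12 others, while Ncapg2, Kif26b and Kif24 also had high single animals.

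10 members were placed in the role group called matched by name only. Cdc37l1, a relative of the Hsp90 partner Cdc37, measured 306, 339 and 280.5 normalized counts in control, 295, 273 and 330.0 in sham, 267, 306 and 191 at 3 dpi, 361, 347 and 316 at 14 dpi, 436, 438 and 466 at 30 dpi and 494, 514 and 490.3 at 100 dpi. Its 30 and 100 dpi libraries were above all others. It rose at 100 dpi against control (log2 0.70 ± 0.147 SE, adjusted p = 0.00745) and sham (log2 0.74 ± 0.147 SE, adjusted p = 0.00672), in every setting and left-out fit. At 30 dpi it rose against both (log2 0.54 ± 0.147 SE, adjusted p = 0.0286 and log2 0.58 ± 0.147 SE, adjusted p = 0.0252), but leaving out control 1 or 3, sham 1 or 2, or 30 dpi 2 or 3 ended the call (up to 0.116). Cdc40, a splicing factor, rose at 30 dpi against control (log2 0.53 ± 0.103 SE, adjusted p = 0.00387) and against 14 dpi (log2 0.53 ± 0.103 SE, adjusted p = 0.0109). It also rose at 100 dpi against control (log2 0.43 ± 0.103 SE, adjusted p = 0.0138). Against sham Cdc40 was not called at 30 or 100 dpi. All its sham libraries (802, 807 and 793) lay above all controls (707, 724 and 651). The calls against control were lost with the length trend removed, and that at 100 dpi also without control 3 or 100 dpi 3 (up to 0.0554).

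3 of these 10 fell. Cdc37, which brings kinases to Hsp90, was lower at 30 dpi (log2 -0.33 ± 0.0938 SE, adjusted p = 0.0323) and Cdc5l, a spliceosome protein, at 100 dpi (log2 -0.35 ± 0.0927 SE, adjusted p = 0.0227). Poldip3, which links splicing to translation, was the member called at 14 dpi against control (log2 -0.46 ± 0.103 SE, adjusted p = 0.0499), at 976, 1090 and 988 against 1359, 1472 and 1361. That call was lost without any 1 of the 6 libraries (up to 0.208). The call of Cdc37 was lost without any control or 30 dpi 2 or 3 (up to 0.137), and that of Cdc5l without control 1 or 3 or any 100 dpi library (up to 0.0778). Cdc34, a ubiquitin-conjugating enzyme, and Cdc123, of translation initiation, gave the smallest F statistics (adjusted p = 0.719 and 0.432).

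Other settings ended some of the calls given above. With the length trend removed, the calls at 30 dpi against sham were lost for Kif24, Kif26b, Ncapg2, Kif5b and Cdc14b. Also lost were that at 30 dpi against control for Cdc37, and those at 100 dpi against sham for Kif13a and Cdc14b. Between 30 and 14 dpi the calls of Mcm5, Mcm6, Pola2 and Kif13b were lost in this way. By FPKM the calls of Cdc37, Kif9, Poldip3, Pola2 and Kif13a were lost. So were those of Kif13b between 30 and 14 dpi, of Pold1 at 3 dpi, of Kif5b at 14 dpi, and of Kif26b at 30 dpi against sham and at 100 dpi. The edgeR and DESeq2 fits lacked control 1. By edgeR, Mcm3, Mcm5 and Pola2 were not called between 30 and 14 dpi. Against control, edgeR did not call Cdc37, Cdc37l1, Cdk6 and Orc2 at 30 dpi, Poldip3 at 14 dpi, or Kif1c, Kif9, Kif26b, Ncapg2 and Cdc5l at 100 dpi. Against sham it did not call Kif26b and Ncapg2 at 30 dpi, Pold1 at 3 dpi or Kif5b at 14 dpi. By DESeq2, Kif9 at 100 dpi and Orc2 at 30 dpi were not called against control. In limma without control 1, the calls against control of Cdc37, Cdc37l1 and Orc2 at 30 dpi and Poldip3 at 14 dpi were also lost. So were those of Kif1c, Kif9, Kif26b and Cdc5l at 100 dpi, while Cdk6 at 30 dpi and Ncapg2 at 100 dpi stayed called. What the change of test and the missing animal each contributed was not tested. In a fit of the compared groups alone, 3 of the 11 calls at 30 dpi against control and 1 of the 12 against sham were made.

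Cell cycle genes outside these families were described by 3 lists. Of 38 genes of mitosis and cytokinesis, 23 were tested, and their library medians were 2.59 in sham 3, 1.58 in 3 dpi 3, 1.53 to 2.78 at 14 dpi, 2.89 in 100 dpi 3 and at most 0.97 elsewhere. At 14 dpi against control 22 of the 23 had positive differences, where 50.3% of all genes had, with a median of 2.39. The 1 called, where 0.89% of all genes were, was Smc4, the shared core of both condensins (log2 1.02, adjusted p = 0.0397; 826, 801 and 530 against 382, 349 and 312). Smc4 was also called at 100 dpi against control, where 12% of all genes were (log2 0.90, adjusted p = 0.0137). It measured 590, 515 and 895 there. Top2a, the topoisomerase that untangles chromosomes, measured 47.3, 80.0 and 19.9 normalized counts in control, 45.2, 123 and 508 in sham, 56.1, 38.8 and 246 at 3 dpi, 434, 357 and 176 at 14 dpi, 109, 43.5 and 98.3 at 30 dpi and 79.3, 50.0 and 561 at 100 dpi, with sham 3, 3 dpi 3, the 14 dpi libraries and 100 dpi 3 above all others. Not every gene of the list was high in those libraries: Ckap5, a microtubule polymerase, lay between 704.7 and 934 throughout. Of 28 further genes of DNA synthesis, 23 were tested and 2 fell from 14 to 30 dpi, where 1.56% of all genes did: Lig1, which joins Okazaki fragments (log2 -0.76, adjusted p = 0.00716), and Tk1, thymidine kinase (log2 -3.52, adjusted p = 0.0431).

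Of 33 cell cycle transcription factors and brakes, 23 were tested. Their library medians were 0.21 to 0.40 at 14 dpi and lay at 0.13 in sham 3, -0.10 in 3 dpi 3 and 0.19 in 100 dpi 3. The genes named from this list were chosen after their values were seen. Ccnd2, a D cyclin that binds Cdk4 and Cdk6, measured 132, 149.9 and 128 normalized counts in control, 157, 137 and 173 in sham, 128, 211 and 151 at 3 dpi, 223, 272 and 229 at 14 dpi, 239, 359.8 and 309.9 at 30 dpi and 384, 363 and 385 at 100 dpi. It rose at 30 dpi (log2 1.12, adjusted p = 0.00126) and 100 dpi (log2 1.46, adjusted p = 0.000202) against control and was called against sham at both times (log2 0.94 and 1.28; adjusted p = 0.00495 and 0.000686). Rbl1, the pocket protein p107, rose at 100 dpi against control (log2 0.73, adjusted p = 0.00611) and sham (log2 0.53, adjusted p = 0.0434). Tfdp1, the partner of E2F factors, fell from 14 to 30 dpi (log2 -0.73, adjusted p = 0.0403). Foxm1, which switches on mitotic genes, measured 147 in sham 3, 91.8 in 3 dpi 3, 109, 112 and 41.5 at 14 dpi and 154 in 100 dpi 3, and at most 37.7 elsewhere.

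Markers of the cells that such tissue can hold were summed in each library, and their part in these results was not tested. Of 10 cardiomyocyte genes 8 had rows, with sums of 611700 to 964800. The lowest sum of all 18 libraries was that of 3 dpi 3, where the other animals of 3 dpi had 848900 and 883500, while sham 3 (769800) and 100 dpi 3 (891000) had the highest of their groups. The fibroblast sum (7 of 8 rows) was 27930 to 34250 in control, 27000 to 41160 in sham, 45300 to 61610 at 3 dpi, 67570 to 72520 at 14 dpi, 20740 to 63430 at 30 dpi and 21510 to 36380 at 100 dpi. Of the single high libraries, 3 dpi 3 had the highest fibroblast sum of its group (61610) and sham 3 of its own (41160), while 100 dpi 3 (27550) lay inside its group and below control 1. The erythroid sum (4 of 10 rows) was 4638 to 10910 in control, 5550 to 22390 at 14 dpi, 6418 in sham 3, 5343 in 3 dpi 3 and 2184 in 100 dpi 3. The macrophage and leukocyte sum (4 of 10 rows) was 764 to 1643 in control, 847 in sham 3, 1288 in 3 dpi 3, 793 to 1564 at 14 dpi and 1209 in 100 dpi 3. The 1 marker at 0 in any library was Mpeg1 of macrophages, in control 2 and sham 1; its mean of 4.01 rested on few reads. The smooth muscle and pericyte sum (5 of 6 rows) was 93920 to 111300 in control, 67020 to 71700 in sham, 69240 to 114300 at 3 dpi, 65100 to 83580 at 14 dpi, 51400 to 82590 at 30 dpi and 48500 to 70980 at 100 dpi. This sum was mostly Acta2 (mean 50040) and Cnn1 (mean 27950), and the other rows did not follow it. Tagln measured 18.2 to 38.9 in control and 747, 506 and 111 at 14 dpi. Pdgfrb measured 355 to 547 in control and 978, 844 and 626 at 14 dpi. Myh11 overlapped between these groups (24.4 to 30.2 and 19.2 to 31.9). The epicardial sum (3 of 6 rows) was 516.7 to 648 in control, 1083 in 3 dpi 3, 526.5 to 959 at 14 dpi, 637 in sham 3 and 238 in 100 dpi 3. The 1 of 8 lymphocyte genes with a row lay between 10.5 and 41.9. In bulk tissue, fewer cells of a type and less RNA per cell cannot be told apart.

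The minimum of 10 fell among rows of few reads. The members just above it were Cenpi (12.8), Kif14 (12.8) and Cdc25a (16.3), and the rows just below it were Cdc20b (9.78), Cenpj (9.58) and Kif2c (7.9). Kif14, a cytokinesis motor, measured 4.03, 1.01 and 2.71 normalized counts in control, 5.95, 6.0 and 23.4 in sham, 3.06, 2.77 and 7.81 at 3 dpi, 37.1, 42.1 and 17.3 at 14 dpi, 9.19, 0 and 9.15 at 30 dpi and 3.82, 6.25 and 49.2 at 100 dpi. Kif2c, a kinesin that takes microtubules apart at kinetochores, measured 23.9, 20.4 and 4.61 at 14 dpi, 19.8 in sham 3, 13.7 in 3 dpi 3 and 21.7 in 100 dpi 3, and at most 6.89 elsewhere. A floor of 3 reads corresponded to 1.45 to 3.95 normalized counts, for counting error only, and 2 members, Ccnb3 and Kif14, were at 0 in 1 library, 30 dpi 2.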

How the data were processed

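Poly-A RNA of ventricle from 18 geckos (6 groups of 3) was analysed. HISAT2 2.2.0, StringTie 2.2.1 and Salmon 1.8.0 were used, per the submitters' processing notes. Per the series' design text, reads were aligned to a gecko genome and transcripts were assembled de novo and named after mouse genes. The authors deposited normalized counts, a read signal per gene whose normalization is not given in the sources used here, and FPKM values scaled by length and library total. All deposited signal values were whole multiples of 1 step per library, within 0.1 of a read, which gave the read totals. The check applied to these steps refused that of control 1 (1.007) because it lay near 1. For this reason edgeR 4.0.16 and DESeq2 1.42.0, chosen after seeing the data, were run on the recovered reads of the other 17 libraries.

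Genes with a mean of at least 10 were tested on log2(normalized count + 1) with limma 3.58.1 (limma-trend, R 4.3.3). All 6 groups were in 1 model, with 12 residual degrees of freedom, prior df 3.611 and two-sided tests. The test was checked on simulated counts with the same dispersion for every gene. That check does not cover groups in which a single animal stands apart. p-values were adjusted over all 9887 genes within each of 10 comparisons and for the F test. The members and lists were chosen with earlier results of these data known. Named are called members (up to 10 per direction), 48 key members fixed by name, the 2 largest and 2 smallest F statistics of each role group, and the rows nearest the minimum. Differences of libraries were taken from the mean of log2 values in control. Alternatives were pseudocounts of 0.1 and 10, no minimum, TMM factors, FPKM values in place of counts (with 0.1 added and a mean of at least 0.5), a fit of the compared groups alone, a replicate block and each library left out; removal of each library's trend with transcript length (loess) was added after seeing the data. No pair of libraries in a group was a copy. Figures were drawn with matplotlib.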

Additional observations from a re-analysis of the deposited data

Results flagged for a closer look

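For 8 members the change from control differed between 30 and 14 dpi, as tested by the contrast of these times (limma, adjusted over all genes). Mcm3 (log2 -3.17, adjusted p = 0.0342), Mcm4 (-1.86, adjusted p = 0.0146), Mcm5 (-2.66, adjusted p = 0.039), Mcm6 (-2.97, adjusted p = 0.0414), Cdca7 (-2.42, adjusted p = 0.0169) and Pola2 (-0.96, adjusted p = 0.0388) were lower at 30 dpi. Cdc40 (0.53, adjusted p = 0.0109) and Kif13b (0.72, adjusted p = 0.0223) were higher. In each of the 8 genes, the 3 animals of 30 dpi did not overlap the 3 of 14 dpi. The 8 were picked by this contrast of the same libraries, so the lack of overlap adds no support. Over all genes, 12.4% had every 30 dpi library above every 14 dpi library and 12.1% had every one below.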

How the results depend on the processing

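The medians of the G2 and M and of the G1 and S members were followed under some of the settings. These were the pseudocounts, no minimum, TMM factors, FPKM, the length trend removed and the left-out fits. All moved by less than 1 SD of library medians, which is a wide margin for G2 and M (1 on the log2 scale; 0.352 for G1 and S). No call changed sign in any setting. Counts of called members moved more. They are given without the share of all genes called in each setting, so they are not results about the members. With only the groups compared in the fit they were 5 at 14 dpi, 3 at 30 dpi and 9 at 100 dpi against control, and 0 at 3 dpi, 0 at 14 dpi and 1 at 30 dpi against sham. The count tests lacked control 1. DESeq2 called 3 (3 dpi), 7 (14 dpi) against control, 6 (3 dpi), 2 (14 dpi) and 19 (30 dpi) against sham, 15 between 30 and 14 dpi and 36 by its test over all groups. edgeR called 0 at 14 dpi against control, 0 at 3 and 14 dpi against sham and 5 between 30 and 14 dpi. The FPKM table gave 0 at 14 dpi against control and 0 at 3 and 14 dpi against sham. TMM factors gave 0 at 14 dpi against sham, and no minimum gave 1 at 3 dpi against control. With the length trend removed the counts were 2 at 3 dpi against control, 3 at 3 dpi and 0 at 14 dpi against sham and 5 between 30 and 14 dpi; over all genes this moved the higher share at 100 dpi against control from 62.9% to 39.8%. Leaving out 1 library gave 0 calls at 14 dpi, 6 to 12 at 30 dpi and 7 to 10 at 100 dpi against control, 0 to 1 at 3 dpi, 0 to 1 at 14 dpi and 5 to 13 at 30 dpi against sham, and 1 to 6 between 30 and 14 dpi. With the replicate block the counts were 0 at 14 dpi against control and 0 at 3 and 14 dpi against sham. Deviations of same-numbered libraries correlated at -0.179 to 0.23 (median -0.0081, 45 pairs). Those of other pairs correlated at -0.218 to 0.257 (median 0.00035, 90 pairs). The single high libraries sham 3, 3 dpi 3 and 100 dpi 3 carry the same number. Sham 3 correlated with the other 2 at 0.23 and 0.147, and those with each other at 0.126. Whether libraries of the same number share a batch was not tested. The causes of the moves in the counts were not tested. 3 animals per group and the spread among them limit what single genes can show, and rows near 10 counts rest on few reads.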

Other observations

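Among the 54 members outside both phase lists, 14 had their lowest value of all libraries in 3 dpi 3, and no other library held more than 7 of these lowest values. The share of all genes with their lowest value in 3 dpi 3 is not given here, so this is not shown to be particular to the members. The highest values of the same 54 members were spread over the 18 libraries, with at most 6 in any 1 of them.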
